A study of Mus musculus with 10 samples.

Results

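Microtubule-associated proteins bind along the lattice of microtubules, the polymers that paclitaxel stabilises, and the genes described here encode 10 of them: Map1a, Map1b, Map1s, Map2, Map4, Map6, Map7, Mapt, Dclk1 and Tppp. The genes were taken by name from the deposited gene table, which held all 10 among 24411 listed genes, and all 10 passed the filter on low counts that left 13287 genes to test. The RNA was from mouse lumbar spinal cord, with 5 libraries after paclitaxel and 5 after vehicle. Both groups share the tissue and the library protocol, and the labels used here state no dose, schedule, strain, sex or age. Whether each sample of a group was its own animal is not stated, and the p-values therefore cover the spread between these samples alone, which may be technical.

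As background, microtubules are polar tubes of tubulin that carry transport and give axons and dendrites their shape. Classical neuronal members divide the cell between them: tau, from Mapt, is enriched in axons and MAP2 in the cell body and dendrites, while MAP1B is the form of growing axons and MAP1A that of mature neurons. In the white matter the tubulin polymerisation-promoting protein, from Tppp, is made by myelinating oligodendrocytes. Paclitaxel and tau both bind the microtubule, paclitaxel from its inner face and tau along its outer face, and the drug is known for a peripheral neuropathy in patients.

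Libraries held 3676259 to 5432072 counts with paclitaxel and 4585899 to 7791594 with vehicle, so that 3 counts stood for at most 0.819 CPM (counts scaled to a common library size) in any library. The 10 genes together took 0.901% to 1.01% of all counts with paclitaxel and 0.903% to 0.998% with vehicle. With edgeR's quasi-likelihood test no gene of the whole table passed at an adjusted p of 0.05 (0% of 13287 genes, smallest adjusted p = 0.792), and 6.07% of genes, 806 in number, had an unadjusted p under 0.05. DESeq2 called 1 gene, Klf4, which is not among the 10. Neuronal markers were present in every library, with a summed level of 8 markers of 6813 to 7637 CPM with paclitaxel and 7474 to 7695 CPM with vehicle. Markers of oligodendrocytes summed to 20857 to 24753 CPM with paclitaxel and 21470 to 23890 CPM with vehicle. The score of 6 astrocyte markers, the mean over markers of log2 CPM minus its vehicle mean, ran from 0.05 to 0.10 with paclitaxel and from -0.02 to 0.03 with vehicle. Their summed level overlapped between groups, at 4693 to 5237 CPM with paclitaxel and 4506 to 4962 CPM with vehicle. Of the astrocyte markers 5 were higher in value and 1 lower, beside 7 and 1 of the oligodendrocyte markers and 4 and 4 of the neuronal markers. The part of these markers in the results below was not tested. None of 5 sensory neuron markers exceeded 0.817 CPM in any library, and they were at 0 in 3 to 10 libraries each, Mrgprd in all 10 and Scn10a in 9. Paclitaxel replicate 3 was low in several marker lists. Its score was the lowest of the 10 libraries for oligodendrocytes (-0.27, others -0.10 to 0.12), oligodendrocyte precursors (-0.26, others -0.06 to 0.24) and endothelium (-0.68, others -0.47 to 0.32). By a smaller gap it was also the lowest for ependyma (-0.21, others -0.19 to 0.24) and meninges (-0.46, others -0.40 to 0.59). It was the second lowest for microglia (-0.220, others -0.225 to 0.173) and blood (-1.25, others -1.50 to 1.05). For the 2 tested markers of peripheral nerve (Schwann cells) its score was the second highest (0.39, others -0.51 to 0.49). Its neuron score (-0.04) and astrocyte score (0.06) lay within the range of the other libraries, the neuron score as the second lowest. Its summed neuronal markers, 6813 CPM, were the lowest of all, with the other libraries at 7372 to 7695 CPM. Log2 fold changes and ratios that this library moves by more than 1.5 times are also given without it.

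Transcripts of the MAP1 pair and of the MAP2, MAP4 and tau family were the most abundant of the 10 when levels were divided by transcript length. Per kilobase of transcript, Map1a averaged 261 ± 17.9 CPM in paclitaxel libraries and 280.0 ± 10.3 CPM in vehicle libraries (SD, n = 5 each), and Map1b 259.9 ± 27.9 CPM in paclitaxel libraries and 257 ± 23.5 CPM in vehicle libraries. Map1a was above Map1b in 3 of 5 paclitaxel libraries and in 5 of 5 vehicle libraries, so the order of the pair is not fixed beyond the spread with paclitaxel. Map4 and Map2 came next, Map4 at 163 ± 7.86 CPM per kilobase with paclitaxel and 164 ± 4.64 with vehicle, Map2 at 165 ± 10.7 with paclitaxel and 155 ± 6.84 with vehicle. These 2 genes also changed places between libraries, with Map4 above Map2 in 7 of 10.

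Mapt followed at 127 ± 10.9 CPM per kilobase with paclitaxel and 132 ± 4.71 with vehicle, then Tppp at 92.7 ± 12.2 with paclitaxel and 95.4 ± 6.92 with vehicle. Map6 was at 62.3 ± 4.85 with paclitaxel and 65.4 ± 2.15 with vehicle, and Dclk1 at 61.1 ± 0.93 with paclitaxel and 58.2 ± 1.39 with vehicle (SD, n = 5 each), with Map6 above Dclk1 in 9 of 10 libraries. Map7, at 39.4 ± 6.31 with paclitaxel and 34.2 ± 4.79 with vehicle, and Map1s, at 17.8 ± 0.79 with paclitaxel and 18.2 ± 1.74 with vehicle, were the lowest. Apart from the 3 neighbouring pairs named above, each gene exceeded the next in order in all 10 libraries. Lengths were means over the listed transcripts of a gene, so a shift between long and short forms would move these levels, and forms of tau or MAP2 cannot be told apart in counts per gene.

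**Figure D1:**
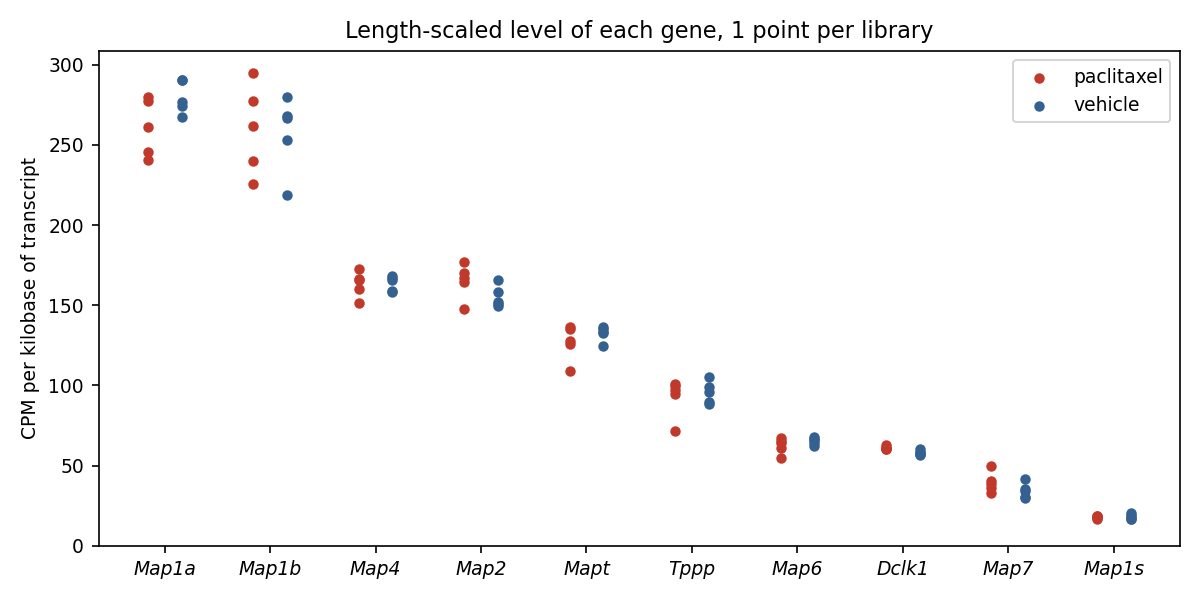
Level of each gene in CPM per kilobase of transcript, ordered by mean, with 1 point per library (paclitaxel red and left, vehicle blue and right in each pair). Map1a and Map1b overlap at the top, Map4 and Map2 overlap below them, and Map1s is lowest, with libraries between 16.5 and 20.7.

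Of the 10 genes, 0 passed in edgeR over all tested genes, beside 0% of the whole table. In value 4 were higher with paclitaxel and 6 lower, with a median log2 fold change of -0.02, against -0.003 over all 13287 genes. The median size of the log2 fold change was 0.06 in the 10 genes and 0.08 in all genes. An unadjusted p under 0.05 was reached by 1 of the 10, Map1a, and between 0 and 2 of them reached it under the alternatives tried. The 95% intervals of the 10 fold changes placed a difference of at most 1.38-fold higher for Map7 and at most 1.14-fold higher for the other 9. In the other direction the lowest bound was 0.854-fold, for Tppp. In bulk tissue fewer cells of a type and less RNA per cell cannot be told apart.

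**Figure D2:**
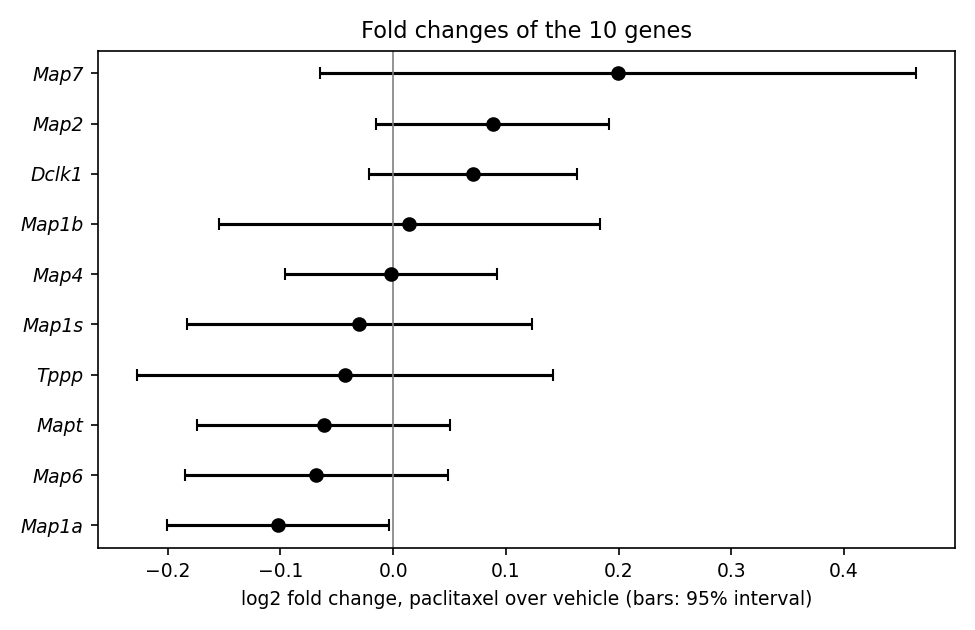
Log2 fold change of each gene, paclitaxel over vehicle, with its 95% interval from edgeR. The interval of Map1a, from -0.20 to -0.004, is the only 1 of the 10 that does not include 0, and none of the 10 genes passed after adjustment over all genes.

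Map1a encodes the large MAP1A protein of mature neurons and lies on chromosome 2 from 121289590 to 121310832 (GRCm38). It had 3072, 3050.0, 2644, 2866 and 2697 CPM in paclitaxel replicates 1 to 5, against 3012, 3193, 3043, 3193 and 2939 CPM in vehicle replicates 1 to 5. All 5 paclitaxel libraries lay below the vehicle mean, and the groups overlapped because paclitaxel replicates 1 and 2 each exceeded 3 of the vehicle libraries. The log2 fold change was -0.10 (SE 0.05, edgeR unadjusted p = 0.0429, adjusted p = 0.80), where 3.12% of all genes were lower at an unadjusted p under 0.05. In edgeR it had an unadjusted p of 0.0931 without paclitaxel replicate 3 (adjusted p = 0.972) and of 0.122 without vehicle replicate 2 (adjusted p = 0.95). Without paclitaxel replicate 1 the edgeR unadjusted p was 0.0206 (adjusted p = 0.833), and without paclitaxel replicate 2 it was 0.0209 (adjusted p = 0.599). Over all alternatives the unadjusted p ran from 0.0179 to 0.197 and the adjusted p from 0.497 to 0.999925. Correcting for GC content and transcript length gave a log2 fold change of -0.06. Map1a was also the only 1 of the 10 with values that were not whole, and 1.83% of its 50-base stretches lie antisense in Ppip5k1. Whether counting used strand is not given in the sources used here, so reads of that overlap cannot be told apart.

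Map1b encodes MAP1B, which is prominent in growing axons, and lies on chromosome 13 from 99421464 to 99516602. Its level was 3481, 3277, 3089, 2834 and 2663 CPM in the paclitaxel libraries, against 3153, 3304, 2988, 3167 and 2584 CPM in the vehicle libraries, in replicate order. The groups overlapped almost entirely, with the lowest value in vehicle replicate 5 and the highest in paclitaxel replicate 1. Map1b had a log2 fold change of 0.01 with an SE of 0.08 (95% interval -0.15 to 0.18) and an edgeR adjusted p = 0.987. Its direction turned in 5 of 21 alternatives, with -0.03 without paclitaxel replicate 1, -0.01 without paclitaxel replicate 2 and -0.04 without vehicle replicate 5, and it was 0.06 without paclitaxel replicate 5. Within groups Map1b varied by 10.7% with paclitaxel and 9.15% with vehicle, while counting error alone was at most 0.981% at its depth of at least 10387 counts.

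Map1s, the small and widely expressed MAP1 relative on chromosome 8 from 70905974 to 70917529, had 59.0 ± 2.63 CPM in paclitaxel libraries and 60.3 ± 5.77 CPM in vehicle libraries (SD, n = 5 each). Its libraries ran from 55.4 to 62.2 CPM with paclitaxel and from 54.8 to 68.5 CPM with vehicle, and the first range lay inside the second. The log2 fold change was -0.03 (SE 0.07, edgeR adjusted p = 0.962) and turned to 0.03 without vehicle replicate 2, which held the highest value, was -0.006 without paclitaxel replicate 3, and turned to 0.09 with GC content and length corrected for. At 228 to 435 counts a library, counting error for this gene was 4.79% to 6.62%, so smaller differences were not detectable at this depth in single libraries.

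Map2 encodes the MAP2 proteins of neuronal cell bodies and dendrites, and lies on chromosome 1 from 66175202 to 66442583. Paclitaxel replicates 1 to 5 held 858, 769.9, 921, 886 and 868 CPM, against 865, 823, 779, 793 and 784 CPM in vehicle replicates 1 to 5. Paclitaxel replicate 2 was the lowest of all 10 libraries, and vehicle replicate 1 lay among the higher paclitaxel values. Its log2 fold change of 0.09 had an SE of 0.05 and a 95% interval of -0.01 to 0.19 (edgeR adjusted p = 0.803), with 4 of 5 paclitaxel libraries above the vehicle mean. Without paclitaxel replicate 2 it was 0.13 (unadjusted p = 0.014) and without vehicle replicate 1 it was 0.12 (unadjusted p = 0.0276), with adjusted p from 0.46 to 0.999925 over all alternatives, and with GC content and length corrected for it was 0.02.

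Mapt encodes tau, the axonal member of the same repeat-containing family, on chromosome 11 from 104229409 to 104332090. The paclitaxel libraries held 563, 571, 489, 611 and 606 CPM, against 557, 594, 610.2, 605 and 598 CPM in the vehicle libraries, in replicate order. Paclitaxel replicate 3 was the lowest of the 10, and the other 4 paclitaxel libraries lay in or within 1 CPM of the vehicle range of 557 to 610.2 CPM. The log2 fold change of Mapt was -0.06 (SE 0.05, edgeR adjusted p = 0.854), at -0.01 without paclitaxel replicate 3 and -0.04 with GC content and length corrected for.

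Map4 encodes the family's ubiquitous member and lies on chromosome 9 from 109929841 to 110083954. Paclitaxel replicates 1 to 5 held 858, 828, 784, 891 and 862 CPM, against 856, 818, 864, 821 and 868 CPM in vehicle replicates 1 to 5. The vehicle range lay inside the paclitaxel range. Map4 averaged 845 ± 40.6 CPM in paclitaxel libraries and 846 ± 24.0 CPM in vehicle libraries (SD, n = 5 each). Its log2 fold change of -0.002 (SE 0.05, edgeR adjusted p = 0.996) was the smallest in size of the 10, with a 95% interval from -0.10 to 0.09 that takes in no difference beyond 1.07-fold higher or 0.936-fold. It was 0.03 without paclitaxel replicate 3.

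Map6 encodes STOP, a protein that protects neuronal microtubules from cold, and lies on chromosome 7 from 99266779 to 99337137. It had 239, 227, 195, 232 and 217 CPM with paclitaxel, against 229, 235, 238, 241 and 222 CPM with vehicle, in replicate order. Only paclitaxel replicate 1 exceeded the vehicle mean, replicates 3 and 5 lay below every vehicle library, and the groups overlapped. The log2 fold change was -0.07 (SE 0.06, edgeR adjusted p = 0.847), at -0.02 without paclitaxel replicate 3 and 0.004 with GC content and length corrected for.

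Dclk1 encodes a kinase with the microtubule-binding domains of doublecortin and lies on chromosome 3 from 55242303 to 55539068. It was the only 1 of the 10 genes whose groups did not overlap, a trait shared by 1.09% of all tested genes. Paclitaxel replicates 1 to 5 held 382, 369, 372, 368 and 369.6 CPM, against 352, 349, 357, 368 and 346 CPM in vehicle replicates 1 to 5. Every paclitaxel library was above every vehicle library, although paclitaxel replicate 4 (368.1 CPM) and vehicle replicate 4 (367.6 CPM) nearly met. The difference was small, 1.05-fold (95% interval 0.985 to 1.12), and did not pass (log2 fold change 0.07, SE 0.04, edgeR unadjusted p = 0.128, adjusted p = 0.813). With GC content and length corrected for, its log2 fold change was 0.02.

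The spread of Dclk1 was narrow as well. Between libraries of a group it varied by 1.53% with paclitaxel and 2.39% with vehicle, while counting error at its 1349 to 2701 counts is 1.92% to 2.72%. Of 944 tested genes with a mean level within 2-fold of that of Dclk1, 99.8% had a larger spread within groups, given as a description with no test.

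**Figure D3:**
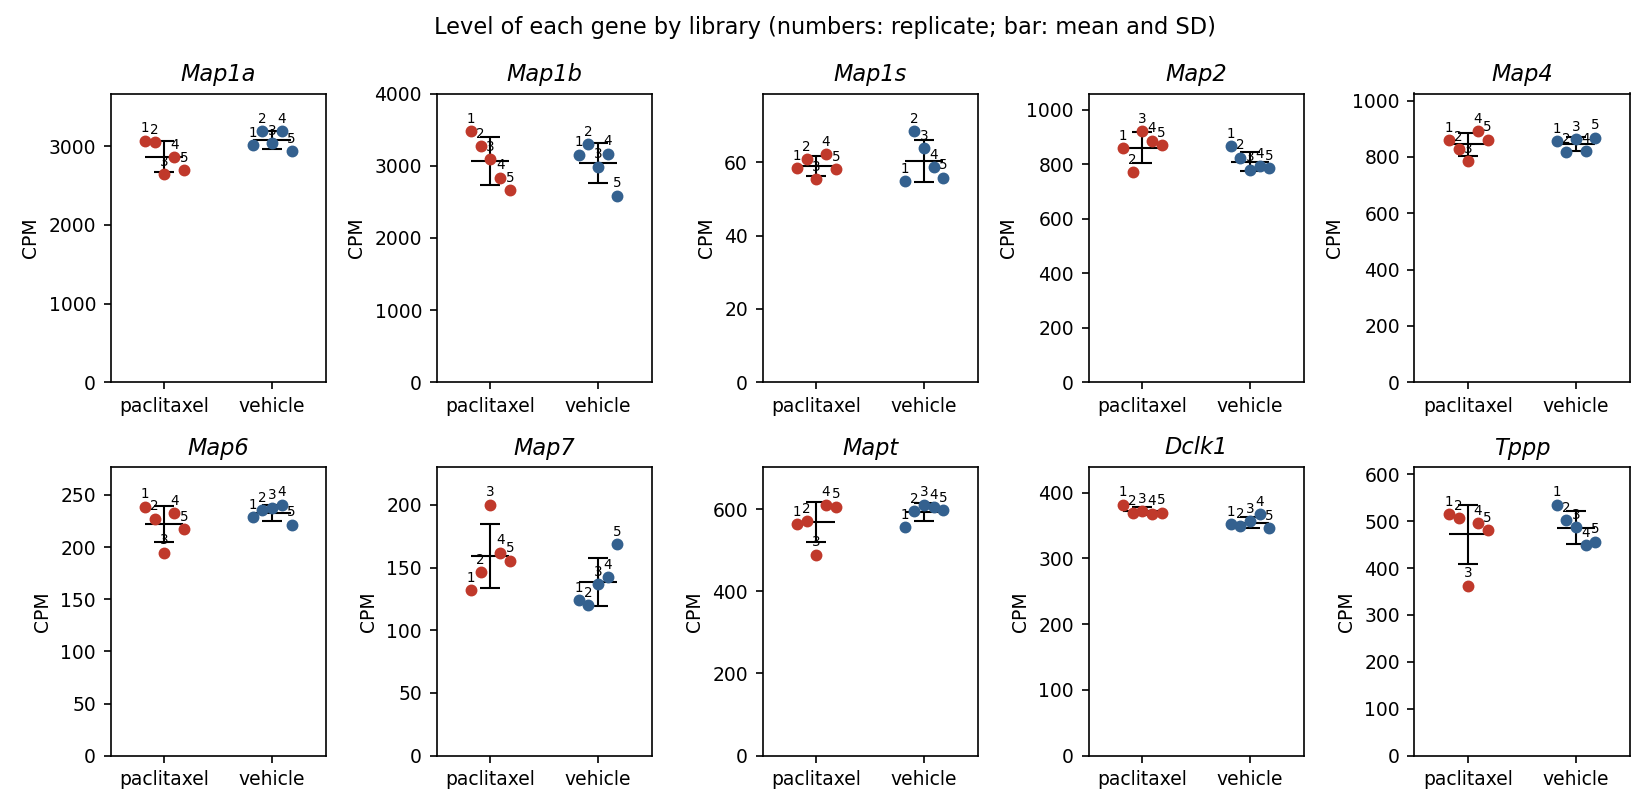
CPM of each gene in every library, with the replicate number at each point, and the mean and SD of each group in black (paclitaxel left, vehicle right). Groups overlap in every panel except that of Dclk1, and paclitaxel replicate 3 is the lowest point for Map1a, Map4, Map6, Mapt and Tppp and the highest for Map2 and Map7.

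Map7 encodes ensconsin, a lattice-binding protein that recruits the motor kinesin-1, and lies on chromosome 10 from 20148920 to 20281590. It had 132, 147, 200.2, 162 and 156 CPM with paclitaxel, against 124, 119.8, 137, 143 and 169 CPM with vehicle, in replicate order. Paclitaxel replicate 3 and vehicle replicate 5 were the highest of their groups, and the groups overlapped. Its log2 fold change of 0.20 (SE 0.12, edgeR adjusted p = 0.811) was the largest in size of the 10 but did not pass, with 4 of 5 paclitaxel libraries above the vehicle mean. Without paclitaxel replicate 3 it was 0.10, and without vehicle replicate 5 it was 0.29 (unadjusted p = 0.0116, adjusted p = 0.887, with adjusted p from 0.677 to 0.999925 over all alternatives). An annotated antisense gene covers 2.41% of its 50-base stretches, with the same limit on strand.

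The gene whose libraries were most like those of Map7 was Zbtb16, a zinc-finger transcription factor gene known to respond to glucocorticoids. Across 10 libraries with the group means removed, their log2 CPM had Pearson's r = 0.98 and Spearman's rho = 0.952, the highest r of 10311 genes searched, so no p is given. Zbtb16 had 17.3, 25.1, 95.9, 33.3 and 33.9 CPM with paclitaxel, against 19.9, 25.3, 28.8, 44.7 and 78.4 CPM with vehicle, in replicate order. The same 2 libraries, paclitaxel replicate 3 and vehicle replicate 5, were thus high for both genes, and r was 0.903 without the libraries farthest from the median of Map7. Tns3, an adhesion protein gene, was the next most like Map7 (r = 0.959).

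Tppp, the oligodendrocyte gene for a protein that bundles and polymerises microtubules, lies on chromosome 13 from 74009419 to 74035753. It had 514, 506, 363, 495 and 480.0 CPM with paclitaxel, against 535, 502, 487, 449 and 456 CPM with vehicle, in replicate order. Paclitaxel replicate 3 stood far below all other libraries, and the remaining 4 paclitaxel libraries lay inside the vehicle range. The log2 fold change was -0.04 (SE 0.09, edgeR adjusted p = 0.952) and turned to 0.04 without paclitaxel replicate 3. In that library the score of 8 oligodendrocyte markers was -0.27, against 0.05 to 0.12 in the other 4 paclitaxel libraries and -0.10 to 0.05 in the vehicle libraries. The vehicle library of lowest Tppp, replicate 4, also had the lowest oligodendrocyte score of its group. Other marker lists were also low in paclitaxel replicate 3, as given above, and the part of these scores in the value of Tppp was not tested.

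The genes most like Tppp over the 10 libraries were Tmem88b and Gpr37 (r = 0.980 and 0.979), of which Gpr37 is a receptor of myelinating oligodendrocytes. Gpr37 had 255, 262, 159.6, 242 and 234 CPM with paclitaxel, against 249, 233, 236, 199 and 219 CPM with vehicle, in replicate order. Paclitaxel replicate 3 and vehicle replicate 4 were again the lowest of their groups. Without the libraries farthest from the median of Tppp the r of Gpr37 was 0.906.

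**Figure D4:**
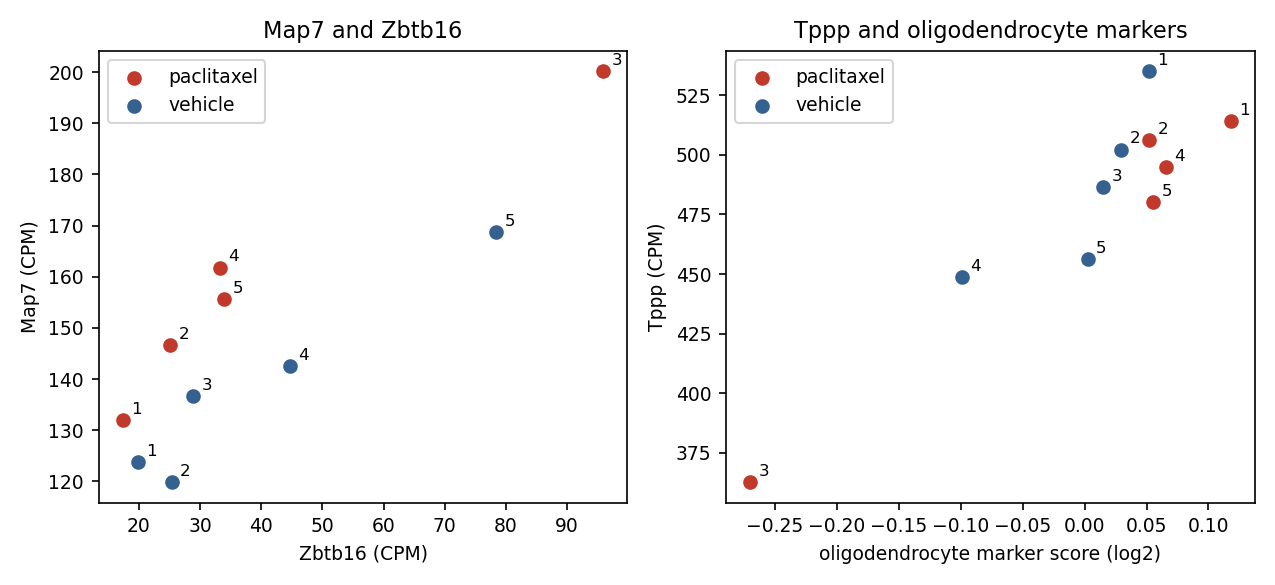
Left, Map7 against Zbtb16, both in CPM, and right, Tppp in CPM against the oligodendrocyte marker score on the log2 scale, with 1 point per library and its replicate number. Paclitaxel replicate 3 has the highest Map7 (200.2 CPM) and Zbtb16 (95.9 CPM) and the lowest Tppp (363 CPM) and marker score (-0.27).

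The other members had likenesses of their own, named by the same search with no test. Map1b was most like Scn8a, the sodium channel gene of nodes of Ranvier (r = 0.977), Map2 like Vsnl1, a neuronal calcium sensor (r = 0.969), and Map1a like Ubr4 (r = 0.969). Map1s was most like Kdm6b (r = 0.914) and Map4 like Tomm22 (r = 0.954). Mapt was most like Nelfb (r = 0.966) and Map6 like Hist2h2aa1 (r = 0.958), a histone gene whose near-identical copies make its counts uncertain. Dclk1 was most like Rab3ip, at r = 0.922, and at 0.645 without the libraries farthest from the median of Dclk1.

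Among themselves the 10 genes did not vary as a block. Of their 45 pairs, 23 had a positive and 22 a negative Pearson's r over 10 libraries with group means removed, and 0 pairs passed after Benjamini-Hochberg adjustment over the 45 (exact permutation within groups, two-sided, 14400 arrangements, 5 pairs at an unadjusted p under 0.05). The lowest p belonged to Map7 and Tppp, which ran opposite to each other (r = -0.85, exact p = 0.00257, adjusted p = 0.116, rho = -0.83, exact p = 0.00604, adjusted p = 0.192). Their r was -0.68 without the libraries farthest from the median of Map7 and -0.77 without paclitaxel replicate 3. Map1a and Map6 ran together (r = 0.832, exact p = 0.00521, adjusted p = 0.117, rho = 0.879, exact p = 0.00854, adjusted p = 0.192), at r = 0.705 without the libraries farthest from the median of Map1a. Map1a and Map1b had r = 0.720 (exact p = 0.0406, adjusted p = 0.363, rho = 0.758, exact p = 0.0278, adjusted p = 0.418) and 0.836 without the farthest libraries. Each group alone holds too few libraries for a value of its own.

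**Figure D5:**
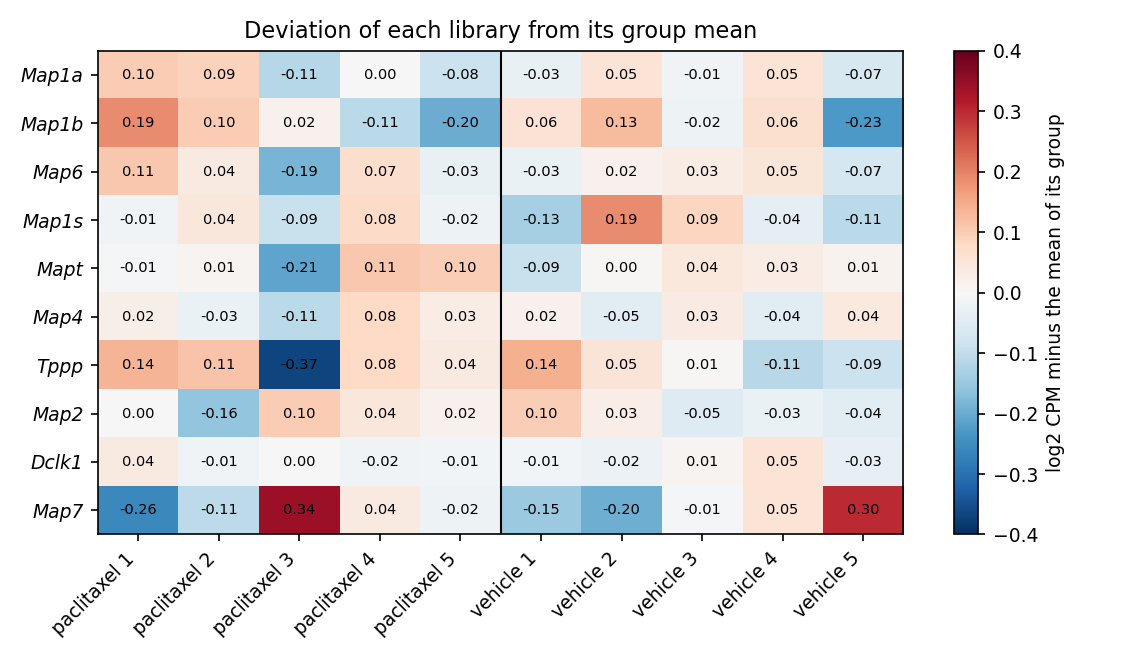
Deviation of log2 CPM of each gene from its group mean in every library, paclitaxel left of the line and vehicle right of it. Tppp (-0.37) and Map7 (0.34) deviate most in paclitaxel replicate 3, while Dclk1 deviates by at most 0.05, in vehicle replicate 4.

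Ratios between members within a library do not depend on library scaling, and 6 were compared. Map2 over Mapt, the dendritic over the axonal protein's transcript, had a log2 ratio of 0.60 ± 0.19 with paclitaxel and 0.45 ± 0.11 with vehicle (SD, n = 5 each; exact permutation test, two-sided, p = 0.143, adjusted over the 6 ratios p = 0.397). Its highest value, 0.91, was that of paclitaxel replicate 3, and without that library the difference of 0.15 between groups was 0.07. Without vehicle replicate 1 it was 0.20 (exact permutation p = 0.0397, adjusted p = 0.143, with adjusted p from 0.143 to 0.676 over the left-out libraries). Map1a over Map1b stood at -0.09 ± 0.11 with paclitaxel and 0.02 ± 0.10 with vehicle (exact permutation test, p = 0.127, adjusted p = 0.397), and the difference of -0.12 was -0.08 without vehicle replicate 5. Map4 over Mapt differed by 0.06 between groups (exact p = 0.198, adjusted p = 0.397), with 0.58 ± 0.07 in the paclitaxel and 0.51 ± 0.07 in the vehicle libraries, by 0.04 without paclitaxel replicate 3 and by 0.09 without vehicle replicate 1 (exact p = 0.0476, adjusted p = 0.143). Differences of the other 3 ratios, paclitaxel minus vehicle, were 0.11 for Map7 over Map2, 0.06 for Dclk1 over Map1b and 0.01 for Tppp over Mapt, with exact p of 0.413, 0.50 and 0.881 (adjusted p = 0.60, 0.60 and 0.881). Map7 over Map2 was at 0.05 without paclitaxel replicate 3 or vehicle replicate 1, 0.06 without vehicle replicate 2, 0.18 without paclitaxel replicate 1 and 0.20 without vehicle replicate 5. Dclk1 over Map1b was at 0.01 without paclitaxel replicate 5, 0.02 without vehicle replicate 2, 0.04 without paclitaxel replicate 4, 0.10 without paclitaxel replicate 1 and 0.11 without vehicle replicate 5. Tppp over Mapt changed sign with 4 libraries left out in turn, paclitaxel replicates 1 and 2 and vehicle replicates 4 and 5, and stood at 0.05 when paclitaxel replicate 3 was left out and at 0.07 without vehicle replicate 1. The smallest p that 5 against 5 libraries allow is 0.00794, and no ratio passed after adjustment, with all libraries or with any 1 left out.

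Other proteins of the microtubule lattice, its ends and its regulators were read from 7 lists of 68 genes, of which 64 were tested. Map7d3 was not analysed here, and Tppp2, Katnal2 and Fignl1 were too low to test, with at most 14 counts in a library. None of the 64 passed over all genes, 35 were higher and 29 lower in value, and the median log2 fold change was 0.01, against -0.003 over all genes. At an unadjusted p under 0.05 there were 6, all lower in value with paclitaxel, which is to be read against the 3.12% of all tested genes that were lower and the 2.94% that were higher at that p. The number was 1 without vehicle replicate 3, 2 without vehicle replicate 4, 3 without vehicle replicate 5 and 11 without vehicle replicate 1, and 3 with GC content and length corrected for. Over all tested genes the numbers in these fits were 515, 621, 723, 1299 and 612, in that order, against 806 in the main fit. The number in the lists thus moved with that of the whole table.

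Kinases, activators and phosphatase subunits that act on tau held 3 of those 6. The list had 7 of 16 genes higher and 9 lower in value, with a median of -0.02. Ttbk1, the tau tubulin kinase of the brain, had 144 ± 14.9 CPM in paclitaxel libraries and 167 ± 6.89 CPM in vehicle libraries (SD, n = 5 each), with a log2 fold change of -0.21 (SE 0.06, edgeR unadjusted p = 0.00382, adjusted p = 0.792). Its libraries ran from 132 to 168 CPM with paclitaxel and from 155 to 172 CPM with vehicle, and the groups overlapped, with 1 paclitaxel library above the vehicle mean. With GC content and length corrected for, the log2 fold change of Ttbk1 was -0.11, that of Cdk5r2 -0.06, that of Mark4 -0.10 and that of Clip2 -0.05. Cdk5r2, an activator of the tau kinase CDK5, had a log2 fold change of -0.18 (126 ± 16.3 CPM in paclitaxel libraries and 143 ± 7.92 CPM in vehicle libraries), and -0.11 without paclitaxel replicate 3. Mark4, a kinase that detaches tau from microtubules, had -0.19 (46.5 ± 3.99 CPM in paclitaxel libraries and 53.2 ± 5.30 CPM in vehicle libraries). Ppp2r2a, a regulatory subunit of the tau phosphatase PP2A, had 0.13.

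Among the proteins of the growing end, 13 of 18 were higher and 5 lower in value, with a median of 0.03. Clip2, a plus-end linker of neurons, had 209.9 ± 10.5 CPM in paclitaxel libraries and 231 ± 14.7 CPM in vehicle libraries (log2 fold change -0.14, SE 0.06, edgeR adjusted p = 0.792). Its relative Clip1 had -0.12, and -0.13 with GC content and length corrected for. Slain2, a partner of the polymerase ch-TOG, had 0.14 (SE 0.09, edgeR unadjusted p = 0.119, adjusted p = 0.811) with all 5 paclitaxel libraries above the vehicle mean. Its groups overlapped, at 34.7 to 44.5 CPM with paclitaxel and 29.7 to 38.1 CPM with vehicle. Slain2 had 0.09 without paclitaxel replicate 4 and 0.099 with GC content and length corrected for. At the minus end Camsap1, which caps and protects it, was the only 1 of the 64 tested genes whose groups did not overlap, where 1.09% of all tested genes share that trait, at 116 to 121 CPM with paclitaxel and 123 to 135 CPM with vehicle (log2 fold change -0.09, SE 0.05, edgeR unadjusted p = 0.099, adjusted p = 0.806). The remaining minus-end genes split evenly in value, with 3 higher and 3 lower.

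Severing proteins had 2 of 6 tested genes higher and 4 lower in value. Katnal1, a severing enzyme of the katanin family, had a log2 fold change of -0.10 (edgeR unadjusted p = 0.0836, adjusted p = 0.80). With GC content and length corrected for, Katnal1 was at -0.13 (edgeR unadjusted p = 0.0138, adjusted p = 0.99). Further lattice-binding proteins had 8 of 13 higher and 5 lower in value, among them Map7d1, a relative of Map7, at 315 ± 31.2 CPM in paclitaxel libraries and 346 ± 19.4 CPM in vehicle libraries (log2 fold change -0.13, SE 0.06, edgeR adjusted p = 0.792). Map7d1 was at -0.08 without paclitaxel replicate 3 and at -0.03 with GC content and length corrected for, and the 2 relatives thus had log2 fold changes of opposite sign, a difference that was not tested. Map1lc3a, the autophagy protein LC3A that also binds MAP1 proteins, had -0.13, and -0.005 with GC content and length corrected for. Both genes of the light chain list were lower in value, and both spectraplakin genes higher, with a median of 0.02.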

How the data were processed

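Expected counts per gene, as the authors deposited them, carry no depth scaling. The submitters' processing notes name mm10, RSEM, STAR and edgeR 4.2.0. Strand setting, annotation, filters and other versions are not given there. Before testing, values were rounded (5.04% were not whole). Genes passed filterByExpr (minimum count 10, minimum total 15) in edgeR 4.0.16 (R 4.3.3), with TMM scaling and the robust quasi-likelihood test, two-sided, Benjamini-Hochberg threshold 0.05. CPM uses TMM-scaled totals of tested genes; a prior count of 2 entered log2 CPM. The fold change and F statistic gave each standard error. Libraries of 1 group always differed by more than counting noise (chi-square per degree of freedom 1.59 to 6.55).

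The 10 genes, lists, named genes and tests were chosen with earlier results of these data known. Named genes were the 10, the 12 of lowest p in the wider lists, and for each of the 10 the 2 most alike genes (mean of at least 10 CPM); Mrgprd, Scn10a, Klf4 and Fos were named after their values were seen. Some genes the rule takes are not reported here. Lengths and shared 50-base stretches came from GENCODE M21 transcripts matched by RefSeq accession, coordinates from RefSeq on GRCm38.p6, the assembly that mm10 names. Alternatives were other scalings and filters, DESeq2 1.42.0, limma-voom (limma 3.58.1) with and without sample quality weights, the replicate number as a block and leaving out each library. Added after seeing the data were leaving out 2 libraries together, leaving out paclitaxel replicate 3 from the correlations, and a loess correction for GC content and length. The test was checked on simulated counts, with 200 changed genes of at least 50 CPM in each set, of 1.1, 1.2, 1.5 and 2-fold together. At an adjusted p under 0.05 it recovered 3.2% of 1.1-fold, 44% of 1.2-fold and 98.4% of 1.5-fold changes, and 6% of all calls were false. Large changes called in the same set ease the adjusted threshold for small ones. In the real data edgeR called 0 genes, so these shares do not give the sensitivity to a lone change, which faces a stricter threshold. Most changes of 1.1-fold would thus be missed.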

Additional observations from a re-analysis of the deposited data

Results flagged for a closer look

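Of 56 sets of 5 libraries examined (the 10 genes, 12 genes of the wider lists and 6 ratios, each in both groups), 1 held a library far from the others, where chance flags about 1 in 20. Tppp in paclitaxel replicate 3 was at 363 CPM, against 480.0 to 514 CPM in the other paclitaxel libraries, a gap of 0.775 of the group's range. The same library had the lowest oligodendrocyte marker score of all, -0.27, and also the lowest scores for oligodendrocyte precursors (-0.26) and endothelium (-0.68), and the part of this in the value of Tppp was not tested.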

How the results depend on the processing

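In none of the 21 alternatives did any of the 10 genes pass over all genes (smallest adjusted p = 0.46), nor any gene of the wider lists. Over all genes, DESeq2 called 1 gene (Klf4) and the fit with the replicate number as a block 1 gene (Fos), where edgeR called 0. Samples of the same number correlated from -0.10 to 0.14 with group means removed. Paclitaxel replicates 2 and 5 were most like the vehicle library of their own number, and the others were not. The labels do not say whether the numbers pair samples, and such correlations cannot decide it. The block changed no call of the 10. Map1a, Map2, Map7, Mapt and Dclk1 kept their direction in all 21 alternatives. Of 210 log2 fold changes 23 reversed. Map4 was at 0.00296 with DESeq2 size factors, 0.00261 with DESeq2, 0.00419 with upper-quartile scaling, 0.00102 with library totals, 0.000369 with a filter of 1 CPM in 5 libraries, 0.0208 with limma-voom quality weights and 0.0134 without both paclitaxel replicate 3 and vehicle replicate 4. With quality weights Map1b was at -0.00894 and Tppp at 0.0120, and Tppp was at 0.0115 without both libraries. Correcting for GC content and length gave -0.0123 for Map1b, 0.0887 for Map1s and 0.00439 for Map6. With each library left out, log2 fold changes ran from -0.0390 to 0.0612 for Map1b, -0.0594 to 0.0253 for Map1s, -0.0176 to 0.0256 for Map4 and -0.0720 to 0.0401 for Tppp, and the Tppp over Mapt ratio from -0.0216 to 0.0725. The cause of these shifts was not tested. No alternative put the median of all genes beyond 0.00604.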
